A study of Mus musculus with 3 samples.

Results

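Integrins and laminins are the receptors and the ligands through which fibroblasts hold on to the extracellular matrix, and 35 of their genes were examined: 17 genes of integrin alpha chains, 8 of integrin beta chains and 10 of laminin chains, out of 22367 protein-coding genes of the mouse annotation. The genes were taken from a list of names, and all 35 were found in mm9. For each gene, the window was the gene span plus 5 kb upstream of its outermost start, and tags and deposited NFI sites were counted in it. The study mapped binding of nuclear factor I (NFI) by ChIP-Seq, in which DNA fragments bound by a protein are precipitated with an antibody and sequenced. The cells were primary embryonic fibroblasts (MEF) of C57BL/6 mice, made from embryos of 14.5 days and used at passages 6 to 7. The 3 libraries were an NFI ChIP in wild-type MEF (wild-type ChIP), an NFI ChIP in MEF from NFI-C knock-out embryos (knock-out ChIP) and DNA of wild-type MEF that was not precipitated (input). The antibody (H300) recognises the NFI group of proteins, so that the knock-out cells lacked NFI-C while the antibody could still bind the other family members.

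An integrin is a membrane receptor made of an alpha and a beta chain, and the combination sets its ligand. Some integrins bind collagen, some bind laminin, some bind the RGD motif of fibronectin and vitronectin, and those of leukocytes and platelets serve cell to cell contact. A laminin is a large secreted protein of an alpha, a beta and a gamma chain, and a main part of basement membranes. Fibroblasts carry several collagen and RGD receptors, whereas the beta2 integrins belong to leukocytes, and the laminin alpha3 and beta3 chains belong to epithelia.

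Each condition had 1 library and no replicate. No test across samples was therefore made, and the intervals, given in brackets, are exact 95% intervals that cover counting error only. Once reads of the same position and strand were counted as 1 tag, between 3132004 and 4100449 unique tags remained per library. Of the uniquely mapped reads on the chromosomes, this left 34.3% for the wild-type ChIP, 29.0% for the knock-out ChIP and 75.8% for the input. For the library titled knock-out, a second label speaks of wild-type MEF, and the title was followed. H3K36me3 is a histone mark of transcribed gene bodies. Regions rich in it touched 9 of 9 fibroblast marker genes and 0 of 10 markers of epithelial, leukocyte and endothelial cells. Over all protein-coding genes the share was 55.9%.

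Deposited NFI sites were present in 26 of the 35 genes, beside 41.9% of all protein-coding genes. The share of genes with a site depends on length, and these genes are long. Among genes with a window of 20 to 50 kb, 46.3% of all genes and 5 of 11 integrin and laminin genes had a site. For 50 to 100 kb the values were 70.7% and 8 of 10. For 100 to 200 kb they were 86.4% and 9 of 9, and all 4 of the longest genes had a site, as did 97.3% of all genes above 200 kb. The only member with a window below 20 kb, Lamb2, had none.

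In total the 35 windows covered 3595 kb and contained 106 sites, or 2.95 sites per 100 kb (2.41 to 3.57). All protein-coding windows together had 2.06 sites per 100 kb and the whole genome 1.56. The integrin beta genes had 3.93 sites per 100 kb (2.46 to 5.95; 22 sites in 7 of 8 genes). The integrin alpha genes had 3.02 (2.20 to 4.04; 45 sites in 11 of 17 genes) and the laminin genes 2.53 (1.80 to 3.45; 39 sites in 8 of 10 genes). The intervals of the 3 classes overlapped, and only that of the laminin genes included the value of all windows.

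**Figure D1:**
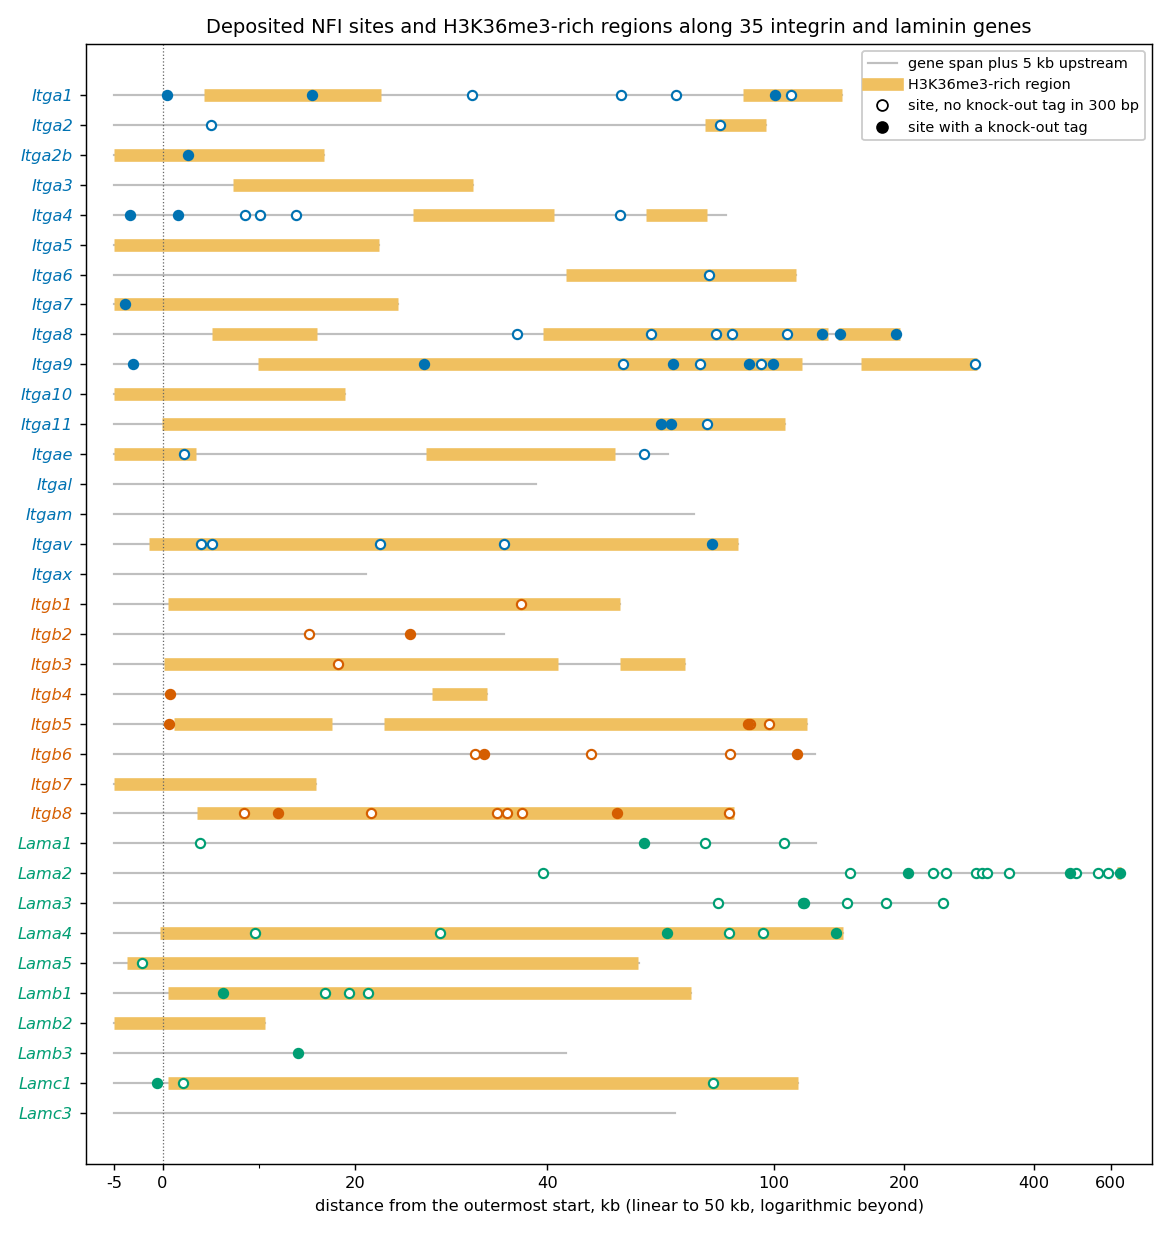
Map of the 106 deposited sites (circles, filled where the knock-out ChIP had a tag in 300 bp) along the 35 genes, by distance from the outermost start in kb (linear to 50 kb, logarithmic beyond). Yellow bars are H3K36me3-rich regions inside the gene window, and 5 sites lie before the outermost start. Sites under 1 kb apart overlap at this scale, as in Itgb5 and Lama3, and the short region at the 3′ end of Lama2 is covered by a site.

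Of the 106 sites, 93 lay in introns, 8 in exons (4 of them coding) and 5, or 4.72%, upstream of the outermost start. The upstream parts made up 4.87% of the window length, a like share, but 5 sites are too few to detect a modest excess or deficit there. Over all genes, counting each window by itself, 2850 of 23691 sites lay in upstream parts that made up 9.91% of the length. Counting every annotated start, 13 sites lay within 5 kb upstream of one. The sites were of low depth: each had between 1 and 5 wild-type tags in 300 bp, with a median of 3, and 9 sites had 5. After tags were moved by 75 bp in their direction, as the note deposited with the sites states, 15 of the 106 sites had at least 5 wild-type tags in 300 bp around the site centre, and 104 had them in 600 bp. The stated threshold of 5 tags in 300 bp was thus not recovered around the centres.

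Over the whole windows, tags of the ChIP libraries were close to the input. In the integrin alpha genes, 2453 tags came from the wild-type ChIP, 2188 from the knock-out ChIP and 3112 from the input. After scaling to library size, this was a wild-type ChIP over input ratio of 0.965 (0.915 to 1.02). The integrin beta genes had 1025, 969 and 1265 tags in the same order and a ratio of 0.992 (0.912 to 1.08). The laminin genes, with 2376, 2172 and 2723 tags, had 1.07 (1.01 to 1.13). The knock-out ChIP over input ratio was 0.920 (0.871 to 0.973) for integrin alpha, 1.00 (0.921 to 1.09) for integrin beta and 1.04 (0.987 to 1.11) for laminin genes. Summed in the same way over all protein-coding windows, the ratio was 0.921 in each ChIP. The median of single genes was 0.837 in the wild-type ChIP and 0.839 in the knock-out ChIP over all genes.

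The laminin value rested on Lama2 (chr10:26701094-27336748, - strand), the longest of these genes. Its window of 640.7 kb had 994 wild-type tags, 861 knock-out tags and 947 input tags, and without it the laminin ratios were 0.952 in the wild-type ChIP and 0.966 in the knock-out ChIP. Of all wild-type tags in the 35 windows, 5.55% lay in the 300 bp around deposited sites, and of the input tags 1.18%. Without these stretches the wild-type ratio of all 35 genes was 0.965, where it was 1.01 (0.975 to 1.04) with them. The sites were called on these wild-type tags, so neither the wild-type share nor this change is an independent measure. The knock-out ChIP over input ratio was 0.982 without the stretches and 0.983 with them.

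**Figure D2:**
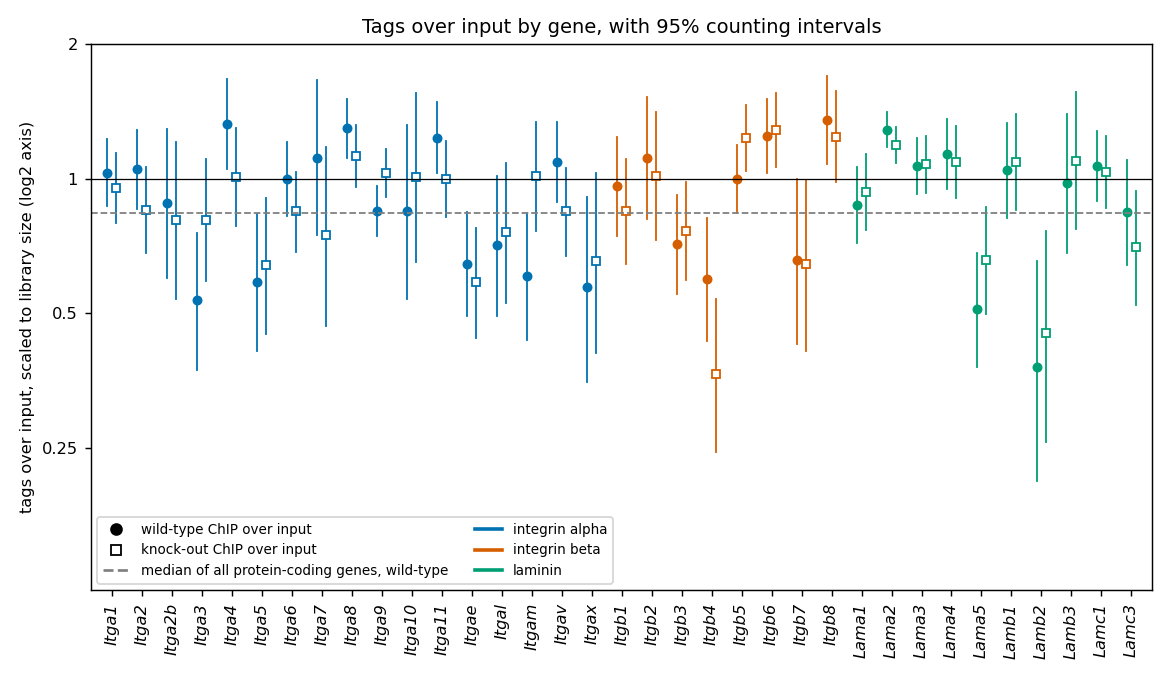
Tags over input, scaled to library size, for each gene on a log2 axis (filled circles: wild-type ChIP; open squares: knock-out ChIP; bars: 95% counting intervals). No gene reaches 1.5, and the lowest wild-type values are those of Lamb2, Lama5 and Itga3, against an all-gene median of 0.837.

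No integrin or laminin gene had a wild-type ChIP over input ratio of at least 1.5, which 3.89% of the genes with at least 20 tags reached. At the other end, 9 genes were at or below 1/1.5, beside 30.1% of all genes: Itga3, Itga5, Itgae, Itgam, Itgax, Itgb4, Itgb7, Lama5 and Lamb2. In the knock-out ChIP, 0 genes were past the fold upwards (background 4.31%) and 7 downwards (background 29.4%).

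Base composition moved with these ratios. Across all genes the median wild-type ChIP over input ratio was 1.06 at 36 to 42% G and C, 0.864 at 42 to 48% and 0.632 at 48 to 56%. Lama5, at 55.3% G and C, had a ratio of 0.511 (0.379 to 0.682), and Itgb8, at 37.6%, had 1.35 (1.08 to 1.69). Divided by the median of genes of the same G and C content, Lama5 stood at 1.12 and Itgb8 at 1.16, so that the gap between both genes was far smaller after centring and the order was kept. The centred class values were 1.13 for integrin alpha, 1.15 for integrin beta and 1.15 for laminin genes. They set class sums against medians of single genes, and over all genes the sum (0.921) itself lay above the median (0.837). As medians of single genes, the centred values were 1.06, 1.15 and 1.17 in the same order. Centred in this way, 3 genes were past 1.5 (Itga7 at 1.56, Itga11 at 1.89 and Itgb2 at 1.56) and 0 were below 1/1.5, beside 8.31% and 13.9% of all genes. In the centred knock-out ChIP over input ratio, 1 gene was past the fold upwards (Itgb5 at 1.52) and 1 downwards (Itgb4 at 0.640). The share over all genes was not counted for this ratio.

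**Figure D3:**
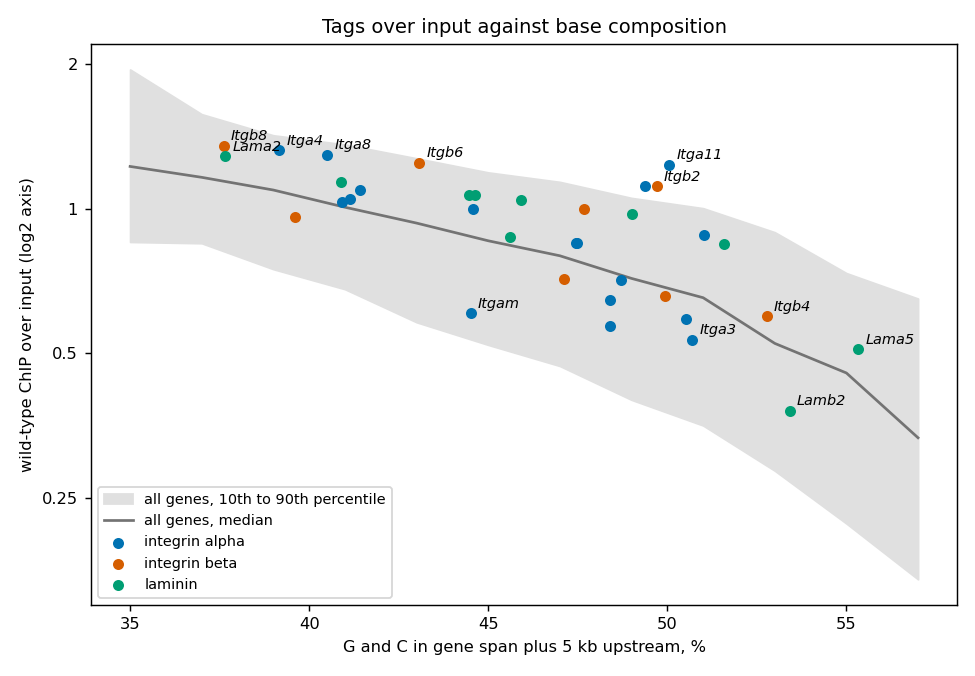
Wild-type ChIP over input ratio (log2 axis) against the G and C content of the gene window in %, with the 35 genes as coloured points and all protein-coding genes as the grey median line and band. The ratio is lower in G and C rich genes for members and for all genes. Itga7, Itga11 and Itgb2 lie above the band, and Itgam lies below the line but inside the band, as do other members.

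Among the collagen receptors, Itga1 and Itga11 carried most sites. Itga1, which pairs with beta1 to bind collagen IV, had 7 sites in 148.9 kb and 247 wild-type tags, 213 knock-out tags and 293 input tags. Itga11 (chr9:62525633-62631789, + strand), a receptor for fibrillar collagen on mesenchymal cells, had 3 sites and 245, 185 and 243 tags. Its wild-type ChIP over input ratio was 1.23 (1.03 to 1.48), and after centring on G and C its value of 1.89 was the highest of the 35 genes. Itga2 had 2 sites and 179, 136 and 209 tags, and Itga10 had none, with 36, 40 and 52 tags. The 4 genes together had 3.12 sites per 100 kb (1.61 to 5.44).

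The laminin receptors had few sites. Itga6, whose product with beta4 anchors epithelia to the basement membrane, had 1 site in 117.8 kb, as had Itgb4 and the muscle laminin receptor gene Itga7. Itga3 had none. With 3 sites in 4 genes the density was 1.34 per 100 kb (0.277 to 3.93), an interval that included the 2.06 of all windows. Itga3 had 48 wild-type tags, 68 knock-out tags and 110 input tags, and Itgb4 61, 35 and 125.

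The RGD receptors had the most sites of the integrin groups, 31 in 6 of 7 genes, or 4.29 per 100 kb (2.92 to 6.09). Their windows were also the longest together, at 722 kb, and their interval overlapped that of every other integrin group. Itgb8 and Itgb6 encode partners of alphav that activate latent TGF-beta, and both carried several sites. Itgb8 (chr12:120396495-120477275, - strand) had 8 sites in 85.8 kb, or 9.33 per 100 kb, the highest density of the 35 genes. Of all genes with a window of 50 to 100 kb, 0.721% had a density as high. Itgb8 was singled out of 35 genes by this same density, so the share is a description and no test. Itgb6, an epithelial gene, had 5 sites and 227, 219 and 223 tags, given for wild-type ChIP, knock-out ChIP and then input. Itgav, the common alpha chain of the vitronectin receptors, had 5 sites, at 5.71 per 100 kb, and 181, 131 and 203 tags. Itga8 had 8 sites and 362, 294 and 342 tags, Itgb5 had 4 sites and Itgb3 had 1. Itga5, the alpha chain of the classical fibronectin receptor, had none, and its window held 50 wild-type tags, 51 knock-out tags and 104 input tags.

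The integrins of leukocytes and platelets had 5 sites in 3 of 7 genes, or 1.75 per 100 kb (0.568 to 4.09). Itgal, Itgam and Itgax, the alpha chains that pair with beta2, had none in 140.5 kb together, which allows up to 2.14 sites per 100 kb when a count of 0 is read as at most 3 (one-sided). Itgb2 itself had 2 sites and 81, 69 and 89 tags. Itgae and Itga2b had 2 and 1 sites, and Itgb7, the partner of alphaE, had none.

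Among the other integrins, Itga4, a receptor for VCAM-1 and fibronectin, had 6 sites in a window of 82.7 kb at chr2:79095583-79173280 plus the upstream part, or 7.26 per 100 kb, a density that 2.56% of genes of 50 to 100 kb reached. Like that of Itgb8, this share is a description and no test. Itga4 had 160 wild-type tags, 114 knock-out tags and 148 input tags. Itga9 had 9 sites over 299.3 kb, and Itgb1, the beta chain shared by most matrix receptors, had 1.

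**Figure D4:**
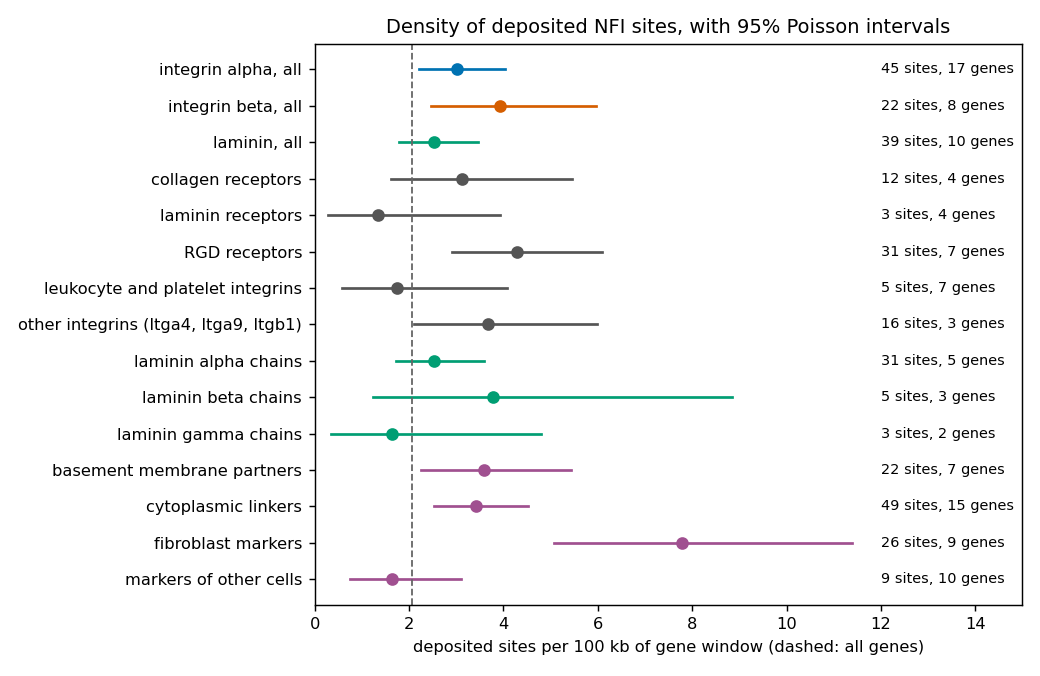
Deposited sites per 100 kb of gene window with 95% Poisson intervals for the 3 classes, their groups by role, the pathway partners and the marker lists. The interval of the RGD receptors (4.29) lies above the dashed line of all protein-coding genes (2.06). So do those of integrin alpha, integrin beta, the other integrins, both partner lists and the fibroblast markers. The remaining intervals cross the line, among them those of the laminin receptors and of the leukocyte and platelet integrins.

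The laminin alpha chains carried 31 of the 39 laminin sites. Lama2, the chain of the muscle basement membrane, had 14 sites, at 2.19 per 100 kb, and 40.3% of all genes above 200 kb had a density as high. Lama4, found in vessels and mesenchyme, had 6 sites at 4.01 per 100 kb, and 240, 216 and 259 tags. Lama3, which encodes an epithelial chain, also had 6 sites, and 359, 339 and 412 tags. Lama1, the alpha chain of early embryonic basement membranes, had 4 and Lama5, the alpha chain of most mature ones, had 1.

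Of the beta chains, Lamb1 had 4 sites in 69.4 kb and 127, 124 and 149 tags, given for wild-type ChIP, knock-out ChIP and then input. Lamb3, the epithelial beta chain, had 1 site and 59, 62 and 74 tags. Lamb2, a chain of the kidney filter and the neuromuscular synapse, had no site and 18, 20 and 58 tags. Lamc1, the gamma chain of most laminins, had 3 sites and 234, 212 and 268 tags, and Lamc3 had no site.

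Loss of NFI-C was compared by the knock-out over wild-type ChIP ratio. Over the gene windows it was 0.954 (0.900 to 1.01) for integrin alpha, 1.01 (0.925 to 1.11) for integrin beta and 0.978 (0.922 to 1.04) for laminin genes, and each interval included 1. The windows hold the sites, which were called on wild-type tags, and without the 300 bp around them the values were 0.994, 1.06 and 1.02, and 1.02 for all 35 genes, where it was 0.974 (0.938 to 1.01) with them. Itga9, the longest integrin gene, had a ratio of 1.21 (1.06 to 1.39), and leaving it out was chosen after seeing the data. The integrin alpha value was then 0.900 (0.844 to 0.960), and 0.936 (0.876 to 0.999) when the stretches at the sites were also left out. As a picked alternative, this is a description. The collagen receptors had 0.868 (0.776 to 0.971), while the other integrin roles had intervals that included 1: 0.871 (0.744 to 1.02) for laminin receptors, 0.979 (0.905 to 1.06) for RGD receptors, 1.06 (0.949 to 1.18) for Itga4, Itga9 and Itgb1 and 1.07 (0.927 to 1.23) for leukocyte and platelet integrins. Without the stretches at the sites, the collagen receptors had 0.887 (0.792 to 0.994), and Itga4, Itga9 and Itgb1 together 1.12 (1.003 to 1.25). The latter value rested on Itga9 at 1.28, while Itga4 had 0.840 and Itgb1 0.904.

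Single genes spread more widely. At least 1.5 was reached by 2 genes, beside 10.1% of all genes: Itgam at 1.67 (1.19 to 2.35; 59 and 92 tags) and Itga3 at 1.52 (1.03 to 2.24; 48 and 68 tags). Itgb4 was at or below 1/1.5, with 0.614 (0.393 to 0.945; 61 and 35 tags), beside 8.8% of all genes. Centred on G and C content, Itga3 was at 1.48 and Itga7 at 0.653, so that Itgam alone was past the fold upwards (background 9.64%), and Itgb4 and Itga7 downwards (background 9.33%). Itgam and Itga3 had no deposited site.

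Smaller ratios whose interval excluded 1 were those of Itgb5 at 1.24 (1.04 to 1.48), Itga9 at 1.21 (1.06 to 1.39), Itga4 at 0.762 (0.594 to 0.975), Itgav at 0.774 (0.613 to 0.975) and Itga11 at 0.808 (0.664 to 0.982). Without the stretches at the sites, the intervals of Itga4 (0.840; 0.649 to 1.09) and Itgav (0.848; 0.668 to 1.07) included 1. Those of Itgb5 (1.24; 1.03 to 1.49), Itga9 (1.28; 1.12 to 1.47) and Itga11 (0.792; 0.647 to 0.968) did not. The share of all genes whose interval excludes 1 was not counted, so these genes are not shown to differ from other genes. Both libraries are single, so a difference between cultures or precipitations cannot be told apart from the genotype.

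At the deposited sites the wild-type ChIP had 325 tags in 106 stretches of 300 bp, against 69 of the knock-out ChIP and 84 of the input. These were 7.81, 1.77 and 1.65 times the genome average of each library. The sites were called on the wild-type tags, so the wild-type value is no independent measure. The knock-out ChIP over input ratio was 1.08 (0.771 to 1.5) at these sites and 1.12 (1.10 to 1.14) at all 39807 deposited sites. A knock-out tag was missing at 70 of the 106 sites, beside 58.4% of all deposited sites. A count of 0 allows up to 3 tags, so the loss of a single site was not detectable at this depth.

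By class, the laminin sites had 16 knock-out tags at 39 sites, or 1.12 times the genome average (0.639 to 1.81), and the integrin alpha sites had 35 at 45 sites, or 2.12 times (1.48 to 2.95). The integrin beta sites had 18 at 22 sites, 2.23 times the average (1.32 to 3.52). With tags moved by 75 bp these values were 1.75 (1.13 to 2.58), 2.24 (1.58 to 3.09) and 2.48 (1.51 to 3.82), and the 3 intervals overlapped in both counts. A total of 24 of the 69 knock-out tags came from 3 sites, which had at least 5 knock-out tags each and were singled out after their values were seen. Such counts occurred at 1.84% of all deposited sites. The first lay in an intron of Itgb5 (chr16:33916782-33916797), with 2 wild-type tags, 10 knock-out tags and 0 input tags. The second lay in an intron of Itga11 (chr9:62580459-62580474), with 5, 9 and 0. The third lay in an intron of Lamb1 (chr12:31956370-31956385), with 3, 5 and 0. All 3 were inside an H3K36me3-rich region. Without them the knock-out ChIP had 1.19 times its genome average at the sites of all 35 genes and 1.04 times at the integrin beta sites.

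**Figure D5:**
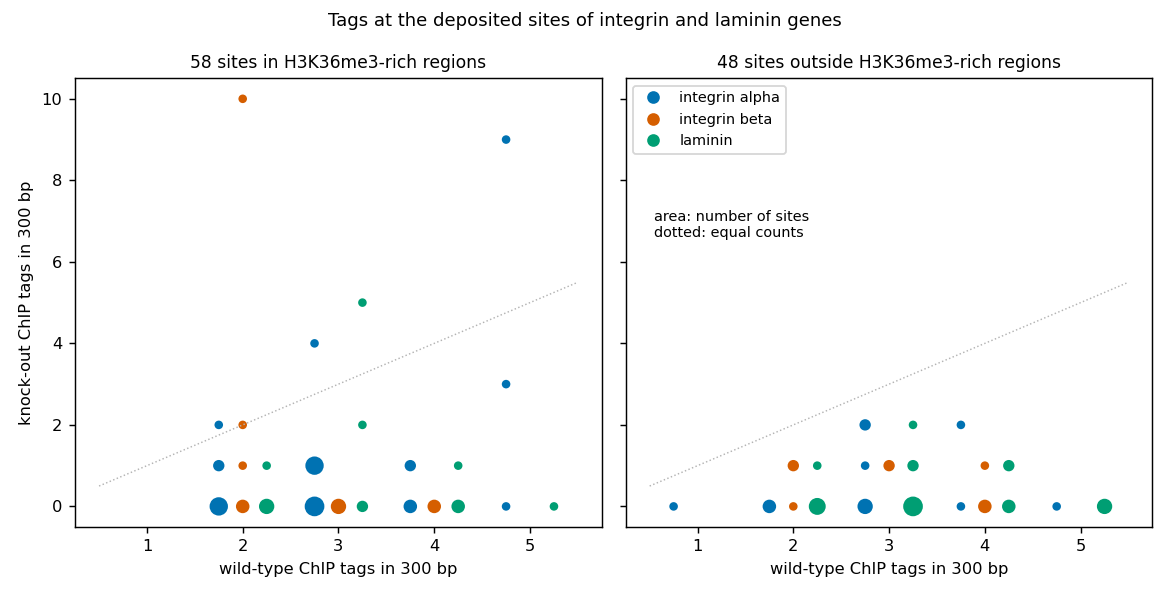
Knock-out against wild-type ChIP tags in 300 bp around each of the 106 deposited sites, in and outside H3K36me3-rich regions (area: number of sites; colour: class; the classes are drawn side by side at each whole number). Most sites have 0 knock-out tags, and the 3 sites with 5, 9 and 10 knock-out tags are all in H3K36me3-rich regions.

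The sites with the most wild-type tags and fewer than 5 input tags had 5 tags in the integrin alpha and laminin genes and 4 in the integrin beta genes, with ties of 4, 5 and 7 sites. In the integrin alpha genes these were sites in introns of Itga4 (chr2:79105719-79105734; 5 wild-type, 0 knock-out and 1 input tag), Itga8 (chr2:12143609-12143624; 5, 0 and 2), Itga9 (chr9:118615485-118615500; 5, 3 and 0) and the Itga11 site above. In the laminin genes they were in introns of Lama1 (chr17:68050499-68050514), Lamc1 (chr1:155107585-155107600), Lama3 and, with a pair of sites, Lama2 (chr10:27086562-27086577 and chr10:27103020-27103035). None of these laminin sites had a knock-out tag, and the Lama3 site had 4 input tags. The integrin beta sites with 4 wild-type tags lay in Itgb5, Itgb6 and Itgb8, and 6 of the 7 had no knock-out tag.

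The NFI consensus is a palindrome of TTGGCA, 3 free positions and TGCCAA. Allowing up to 2 differences from its 12 fixed positions, a match lay within 150 bp of 4 of the 106 sites, beside 3.13% of all deposited sites. These 4 stretches of mm9 are printed because they hold the closest matches, with the bases that equal the consensus in capitals, 5′ to 3′ on the + strand:
Itga7 (chr10:128366892-128366952): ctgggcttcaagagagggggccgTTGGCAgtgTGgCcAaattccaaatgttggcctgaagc
Itga8 (chr2:12031837-12031897): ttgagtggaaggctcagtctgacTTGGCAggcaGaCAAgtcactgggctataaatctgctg
Itga11 (chr9:62580426-62580486): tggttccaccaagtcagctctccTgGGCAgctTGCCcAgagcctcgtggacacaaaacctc
Lama2 (chr10:26743071-26743131): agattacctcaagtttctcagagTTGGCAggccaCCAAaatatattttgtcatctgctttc
Each had 2 mismatches. In Itga7, Itga8 and Lama2 the left arm TTGGCA was complete, and in Itga11 neither arm was. The Itga11 match lay 10 bp from the site centre, and it is the site with 5 wild-type and 9 knock-out tags. The other matches lay 58 bp (Itga7), 137 bp (Itga8) and 117 bp (Lama2) from the centre of their site, and the knock-out ChIP had 1, 1 and 0 tags there. A match is a description of the letters and not proof of binding.

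At least 1 complete arm, TTGGCA or TGCCAA on either strand, was present in the 300 bp of 26 sites, or 24.5%, beside 18.6% of all deposited sites. In windows of the same width 2 kb away, the shares were 17.0% for the sites of these genes and 14.4% for all sites. Arms were found at 11 of 45 integrin alpha, 4 of 22 integrin beta and 11 of 39 laminin sites.

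The sites upstream of the outermost start lay 3350 bp before Itga4, 3889 bp before Itga7, 3027 bp before Itga9, 2178 bp before Lama5 and 617 bp before Lamc1. The 60 bases around them, in mm9 and on the + strand, are given because they lie before the whole gene. None holds a complete arm, so no base is in capitals:
Itga4 (chr2:79092204-79092263): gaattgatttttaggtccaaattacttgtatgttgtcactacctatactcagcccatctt
Itga7 (chr10:128366951-128367010): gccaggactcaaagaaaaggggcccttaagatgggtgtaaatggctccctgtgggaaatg
Itga9 (chr9:118512752-118512811): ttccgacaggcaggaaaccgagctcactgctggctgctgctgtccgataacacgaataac
Lama5 (chr2:179962713-179962772): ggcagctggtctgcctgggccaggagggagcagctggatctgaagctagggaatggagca
Lamc1 (chr1:155180504-155180563): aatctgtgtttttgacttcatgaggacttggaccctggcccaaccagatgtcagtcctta
The Itga4 site had 4 wild-type tags, 2 knock-out tags and 0 input tags. The Lamc1 site had 3, 1 and 1, the Itga9 site 3, 2 and 2, the Itga7 site 2, 1 and 1, and the Lama5 site 2, 0 and 2. The remaining 8 sites lay before a start inside the gene, in Itga2b, Itga8, Itgb1, Itgb4, Itgb5, Itgb6, Lama4 and Lamb3, at 226 to 4810 bp. Of these the Itga2b site, in a coding exon, was the closest to a start and had 3 wild-type tags, 4 knock-out tags and 3 input tags.

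Over the 5 kb upstream sequence alone, the laminin genes had 82 wild-type tags, 74 knock-out tags and 138 input tags. The wild-type ChIP over input ratio there was 0.727 (0.546 to 0.963), and 0.702 (0.522 to 0.938) in the knock-out ChIP, beside 0.717 and 0.728 over all genes. It lay below the interval of the whole laminin windows, but without Lama2 the values of 0.760 (0.564 to 1.02) upstream and 0.952 (0.887 to 1.02) over the windows overlapped. The integrin alpha genes had a wild-type ratio of 0.903 (0.726 to 1.12) and the integrin beta genes 0.944 (0.698 to 1.27), and both intervals overlapped those of the whole windows.

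The deposited files also hold regions rich in histone marks, taken from published data on MEF. H3K4me3, which marks active and poised starts, lay within 1 kb of the outermost start of 28 of the 35 genes, beside 63.9% of all genes. Within that distance it was absent at Itga6, Itga10, Itgal, Itgam, Itgax, Itgb6 and Lamb3. The H3K4me3-rich regions of these files are not confined to starts: 50 of the 106 sites and 42.6% of all deposited sites lay in one. Itgb6, with none at its outermost start, had sites inside the gene in such a region. H3K27me3-rich regions are broad in these files: they lay at 71.1% of all gene starts and at 32 of the 35, with Itga2b, Itgb1 and Itgb2 as the exceptions. They also lay at the starts of 9 of 9 fibroblast marker genes and 9 of 10 markers of other cells.

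A region rich in H3K36me3 touched 26 of the 35 genes, beside 55.9% of all genes, and covered at least 50% of the span in 21. It touched 4 of 4 collagen receptor, 4 of 4 laminin receptor, 6 of 7 RGD receptor and 3 of 3 other integrin genes, and 3 of 7 genes of leukocyte and platelet integrins. Of the laminin genes it touched 3 of 5 alpha, 2 of 3 beta and 1 of 2 gamma chains. These counts are small, and the roles were not compared by a test. Touching a region also goes with length: over all genes the median window was 27.1 kb with a region and 12.7 kb without. The integrin and laminin genes are long, and they were not compared here with genes of like length. For spans covered by at least 50% or whole, no share over all genes was counted. The 9 genes without an H3K36me3-rich region were Itgal, Itgam, Itgax and Itgb2 of leukocytes, Itgb6, Lama3 and Lamb3 of epithelia, and Lama1 and Lamc3. The leukocyte and platelet genes Itga2b, Itgae and Itgb7 did have one. In Lama2 the region covered 2.16% of the span, at the 3′ end, and in Itgb4 16.9%. Covered over their whole span were the collagen receptor genes Itga10 and Itga11, the RGD receptor genes Itga5 and Itgav, the muscle laminin receptor gene Itga7, the leukocyte and platelet genes Itgb7 and Itga2b, and Lama4, Lama5 and Lamb2. Regions can extend over neighbours, as they did for every gene covered whole. That over Lamb2 was 201.1 kb long and touched 12 other genes. The region touched 6 other genes for Itga10, 4 for Itga7 and 2 for Lama5. It touched 3 others each for Itga2b, Itga5 and Itgb7, and 1 each for Itga11, Itgav and Lama4.

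Genes with an H3K36me3-rich region had 88 sites, or 3.15 per 100 kb (2.53 to 3.89), and those without one 18, or 2.23 (1.32 to 3.53). Over all genes the values were 2.60 and 1.35. The intervals of these genes overlapped, so a difference in site density was not detectable with 35 genes. Within the gene spans, the sites had a density of 3.42 per 100 kb (2.58 to 4.43) in the H3K36me3-rich parts and 2.53 (1.84 to 3.38) in the other parts, beside 2.75 and 1.49 over all genes. For integrin beta genes the order was turned, with 4.13 (2.20 to 7.07) in and 4.39 (2.01 to 8.33) outside the regions, where Itgb6 and Itgb2 hold 7 of the 9 sites.

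The wild-type ChIP over input ratio in the H3K36me3-rich parts was 1.07 (0.998 to 1.14) for integrin alpha genes and 0.788 (0.713 to 0.870) in their other parts. For laminin genes it was 0.956 (0.861 to 1.06) and 1.15 (1.07 to 1.23), the opposite order. For integrin beta genes it was 1.02 and 0.951, and for all 35 genes 1.03 and 1.01. Without Lama2, which makes up most of the laminin part outside the regions, the latter values were 1.03 and 0.884, and those of the laminin genes 0.969 (0.872 to 1.08) and 0.965 (0.871 to 1.07), so that no order remained. The G and C content of the parts was 45.1% and 43.8% for integrin alpha and 44.8% and 41.3% for laminin genes, and its share in these values was not tested. Over all genes the values were 0.917 and 0.961.

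At the sites, the knock-out over wild-type ChIP ratio was 0.307 (0.220 to 0.423) for 58 sites in H3K36me3-rich regions and 0.135 (0.0788 to 0.218) for 48 sites outside. Over all deposited sites these were 0.299 (0.293 to 0.305) and 0.225 (0.221 to 0.228). With tags moved by 75 bp the values of the integrin and laminin genes were 0.335 (0.245 to 0.453) and 0.166 (0.103 to 0.256). The sites in Itgb5, Itga11 and Lamb1 named above all belong to the first group. Without them its ratio was 0.170 (0.108 to 0.258), given as a description, since these sites were picked for their knock-out tags.

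Lamina-associated domains, parts of the genome held at the nuclear envelope, touched 3 of the 35 genes, beside 20.6% of all genes. These domains were mapped in human fibroblasts and carried over to mm9. Itga9 and Lama1 lay in such a domain whole, and Itgb8 with 7.47% of its span. Itga9 had 9 sites and an H3K36me3-rich region over 82.1% of its span, while Lama1 had 4 sites and none.

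The partners of integrins and laminins were read from lists by function. Of 7 basement membrane genes that bind laminin or stabilise its network (among them nidogens, collagen IV, perlecan, agrin and dystroglycan), 6 had a site, with 22 sites at 3.59 per 100 kb (2.25 to 5.43). Of 15 cytoplasmic linkers between integrins and actin, 12 had a site, with 49 sites at 3.42 per 100 kb (2.53 to 4.53). These genes are also long, with median windows of 79.7 and 74.1 kb beside 20.4 kb for all genes, of which 41.9% had a site. H3K36me3-rich regions touched 7 of the 7 and 14 of the 15, beside 55.9% of all genes. The fibroblast markers had 26 sites at 7.78 per 100 kb (5.08 to 11.4), an interval above that of every integrin and laminin class except integrin beta, and the markers of other cells 9 sites at 1.64 (0.748 to 3.11). Nid2 and Col4a1 had a site within 5 kb upstream of a start, that of Col4a1 inside the span of the other listed collagen IV gene. The linker genes Tln1, Tln2, Vcl, Lims1, Pxn, Bcar1 and Actn4 also had a site within 5 kb upstream of a start. Actn4, which crosslinks actin, had 4 such sites, with 9 knock-out tags at the one that also had 6 wild-type tags and none at the others.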

How the data were processed

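The authors mapped the reads with ELAND to mm9, in which the first 32 bases of a read are placed, and deposited every read with its position and strand without normalization; the values here are counts of these deposited reads. They also deposited NFI sites, called with ChIP-Peak on wild-type tags outside annotated repeats with at least 5 shifted tags in 300 bp, and boundaries of histone mark regions and lamina domains, which hold positions only. Labels give fragments of 1000 bp, a gel cut of 50 to 400 bp and 18 PCR cycles, so reads at 1 position can be copies of 1 molecule.

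Only uniquely mapped reads on the 19 autosomes, X and Y were kept, each placed at its 5′ end, and reads of the same position and strand were counted as 1 tag. In a sample of reads, between 98.4% and 99.9% of those mapped without mismatch equalled the NCBI build 37 reference over these 32 bases. Genes were the protein-coding genes of GENCODE vM1, and 278 of them carry a symbol used more than once. Of the 35 windows, 9 overlapped another protein-coding gene, and its tags are included. Ratios were scaled to all counted tags of a library, with exact binomial intervals, and site counts have exact Poisson intervals. A gene was past the fold at 1.5 or 1/1.5 with at least 20 tags in both libraries together. H3K4me3 and H3K27me3 were read within 1 kb of the outermost start, H3K36me3 over at least 1 base of the span. The members and lists were chosen with earlier results of these data known. Sites named were those within 5 kb upstream of a start, those with a consensus match and, per class, those with the most wild-type tags among sites with fewer than 5 input tags, ties included. Of the markers, Spi1 was not matched. No sequence of Lama3 is given.

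The fold call and intervals were tested on simulated data. The simulated counts varied by counting error alone, without an effect of base composition, so they do not vouch for the calls made here. The tools were Python 3.11.15, with NumPy 2.4.6 and SciPy 1.17.1 for the counts and intervals, pandas 2.3.3 for the tables and matplotlib 3.10.9 for the plots. Deposited files of the complements of the mark regions and of microRNA loci were not used here. Alternatives were other tag filters, scalings, windows, site widths and overlap rules, and each sequencing run left out.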

Additional observations from a re-analysis of the deposited data

How the results depend on the processing

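Scaling to the median ratio over all genes, which shifts every wild-type ChIP over input ratio by a log2 value of 0.26 upwards, gave 1.15 for integrin alpha, 1.18 for integrin beta and 1.28 for laminin genes, and 1.10, 1.19 and 1.24 in the knock-out ChIP. Centring on G and C content gave 1.13, 1.15 and 1.15, and 1.07, 1.16 and 1.14. Both alternatives set class sums against medians of single genes, and over all genes the wild-type sum of 0.921 itself lay above the median of 0.837. With every read counted, the laminin values were 1.14 and 1.12. Over the 5 kb upstream alone, the wild-type values were 0.903 for integrin alpha and 0.727 for laminin genes, the knock-out values 0.848 for integrin beta and 0.702 for laminin genes, and the knock-out over wild-type ChIP ratios 1.07 for integrin alpha and 0.898 for integrin beta. As the median of single genes, the wild-type ratio was 0.882 for integrin alpha and 1.01 for laminin genes, and the knock-out ratio 0.845 for integrin alpha. Single genes past the fold turned to the other side of 1 in Itgb4 (1.14) and Lama5 (1.12, and 1.41 in the knock-out ChIP) when centred on G and C content, and over the 5 kb upstream in Itgb4 (2.04, and 1.16 in the knock-out ChIP) and Itgae (1.45 in the knock-out ChIP). Alternatives chosen after seeing the data gave 0.952 and 0.966 for laminin genes without Lama2, and a knock-out over wild-type ChIP ratio of 0.900 for integrin alpha without Itga9. At the sites, 600 bp gave a wild-type value of 6.31 times the genome average for integrin alpha and 6.27 for laminin genes. Without the sites of 5 or more knock-out tags, also chosen after seeing the data, the integrin beta sites had 1.04 times the knock-out average, 0.455 of the input and 0.138 of the wild-type ChIP. The cause of these changes was not tested.

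Leaving out each sequencing run, or keeping only tags without mismatch, left the class ratios of the gene windows within their intervals. Both were run for these tag ratios alone. Moving tags by 75 bp, which was also run at the sites, kept the class values within their intervals too. Site counts under other upstream lengths, fewer input tags or stricter sites, and mark counts under other overlap rules, stayed within 1.5 times. Moving tags by 75 bp nevertheless took the knock-out value at the laminin sites from 1.12 to 1.75 times the genome average, and their knock-out ChIP over input ratio from 0.776 to 1.21. No paired analysis was possible because each condition has 1 library. Depth limits single sites to a few tags and genes such as Lamb2 to wide intervals.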
